A study of Mus musculus with 12 samples.

Results

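Pancreatic ductal adenocarcinomas from gemcitabine-treated mice were compared with those from untreated mice, both heterozygous for Cdh11. Members were all libraries whose labels give the genotype as KPC/CDH11+/- , which are 6 of the 12 in the series: 3 from untreated tumours and 3 from gemcitabine-treated tumours. The other 6 libraries come from KPC/CDH11+/+ tumours, 3 untreated and 3 treated. They share the filter, the scaling and the estimate of spread behind every edgeR test below. Their own values are given only where the genotypes are set side by side. All 12 carry the KPC alleles, and the background is labelled C57BL/6; 129 throughout. The sources used here do not give sex, age, the Cre driver, or the dose and schedule of the drug. Replicates are numbered 1 to 3 in each group, but nothing states that they are separate mice, so p-values measure the spread between these libraries. RNA was total RNA from snap-frozen tissue, depleted of ribosomal RNA, and values below are CPM, each count scaled to the size of its library, unless counts are named.

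KPC mice, which carry mutant Trp53 in the pancreas among their alleles, develop duct-like carcinomas inside a dense stroma of fibroblasts, matrix and immune cells. Cdh11 encodes cadherin 11, a cell adhesion protein that is made mainly by fibroblasts and other mesenchymal cells. Gemcitabine is a deoxycytidine analogue that enters cells through nucleoside transporters, is phosphorylated by deoxycytidine kinase, and, once built into DNA, halts replication. It also inhibits ribonucleotide reductase. In bulk tissue, fewer cells of a type and less RNA per cell cannot be told apart.

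Totals of the 6 heterozygous libraries ran from 39388328 to 49172078 counts. Cdh11 was at 148, 115 and 73.7 CPM in untreated tumours and at 109, 141 and 72.0 CPM in treated tumours, so the groups overlapped. Its log2 fold change, treated against untreated, was -0.07 ± 0.37 (SE, 95% interval -0.88 to 0.74, adjusted p = 0.979 by edgeR's quasi-likelihood test). Both groups carry the same Cdh11 label, so this value does not check the genotype. The duct cell keratins fit the labelled tissue: Krt8 stood between 809 and 1291 CPM and Krt19 between 182 and 638 CPM in the 6 libraries. Xist, which coats and silences an X chromosome in female cells, was at 2017 CPM in untreated replicate 1 and at no more than 1.64 CPM in the other 5. Summed CPM of 4 Y-linked genes was 0.725, 183 and 39.8 in untreated and 502, 258 and 258 in treated libraries. Untreated replicate 1 therefore stands apart from the others on the sex-linked genes. Some results that moved without it are given both ways, but not all of them.

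Gemcitabine-treated heterozygous tumours differed from untreated ones in 2 of 24065 genes, Gm10260 and BC023719, both higher with treatment. These are 0.00831% of the genes tested, at an adjusted p under 0.05 by edgeR's quasi-likelihood test with Benjamini-Hochberg adjustment. No gene was lower at that threshold. At an unadjusted p under 0.05, 1063 genes were higher (4.42%) and 838 were lower (3.48%). DESeq2 called 119 genes higher (0.494%) and 51 lower (0.212%) on the same libraries. The biological coefficient of variation was 46.4%, and the median log2 fold change over all genes was -0.03. Groups did not overlap for 1598 genes higher in treated libraries (6.64%) and 1463 lower (6.08%). Without untreated replicate 1 edgeR called 9 genes, all higher, adding Lrat, Cd1d2, Rps3a2, Rpl34-ps1 and 3 predicted genes to the pair. Without untreated replicate 3 it called 5.

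Gm10260 is a gene model on chromosome 13 (GRCm38, 97760072 to 97760632, minus strand) that is a near copy of Rps18, the gene of a protein of the small ribosomal subunit. It had 41, 43 and 76 counts in the untreated libraries and 5779, 4755 and 6018 in the treated ones. All treated libraries lay far above all untreated ones. The log2 fold change was 6.70 ± 0.44 (SE, adjusted p = 0.000204, edgeR). BC023719, annotated as antisense on chromosome 17 (36111426 to 36117121, plus strand), had no counts in the 3 untreated libraries and 142, 115 and 135 in the treated ones. Set against a floor of 3 counts per library, its treated mean of 2.75 ± 0.101 CPM (SD, n = 3) was at least 43.4-fold higher (adjusted p = 0.000859, edgeR). When only the 6 heterozygous libraries were fitted, BC023719 missed the threshold (adjusted p = 0.201, edgeR) and Rps18-ps3 passed it. The sources used here do not give the strand setting of the authors' counting, so reads of BC023719 and of genes on the other strand cannot be told apart.

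Both genes have near-identical copies, and expected counts divide reads among copies. Rps18 itself (chromosome 17, from 33951999) had 27881, 17932 and 36265 counts in untreated and 12485, 13171 and 13391 in treated libraries. Rps18-ps3, a processed copy, had 27, 28 and 37 against 2316, 1937 and 2296. In the untreated libraries nearly all reads of the family were assigned to Rps18, while in the treated ones they were spread over the 3 loci. Summed over the 7 loci of at least 95% identity over at least 50% of the transcript, the family had 28041, 18040 and 36449 counts untreated and 20602, 19931 and 21790 treated. The summed log2 fold change was -0.39 ± 0.35 (adjusted p = 0.799, edgeR), so the call on Gm10260 did not hold for the family. BC023719 summed with H2-T10, A930015D03Rik and H2-T22 gave -0.38 ± 0.30 (adjusted p = 0.763, edgeR), which is also no call. H2-T22 held most of those counts, with 895, 929 and 2487 untreated and 776, 742 and 959 treated. That sum therefore cannot show a gain as small in counts as that of BC023719. H2-T10, the copy of 100% identity, had 186, 159 and 306 counts untreated and 346, 221 and 333 treated. How similar the loci are is shown by coding bases 282 to 371 of Rps18, read from the GENCODE M21 transcripts of GRCm38, all on the minus strand, with Rps18-ps3 on chromosome 8. Capitals mark the bases at which a copy differs from Rps18.
Rps18: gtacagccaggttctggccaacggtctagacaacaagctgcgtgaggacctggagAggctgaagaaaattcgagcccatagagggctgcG
Gm10260: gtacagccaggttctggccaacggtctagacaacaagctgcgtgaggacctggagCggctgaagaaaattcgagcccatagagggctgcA
Rps18-ps3: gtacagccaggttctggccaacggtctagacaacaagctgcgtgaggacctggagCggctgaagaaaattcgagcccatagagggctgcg
Over the 456 coding bases, Gm10260 matched Rps18 at 452 (99.1%) and Rps18-ps3 at 453 (99.3%).

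**Figure D1:**
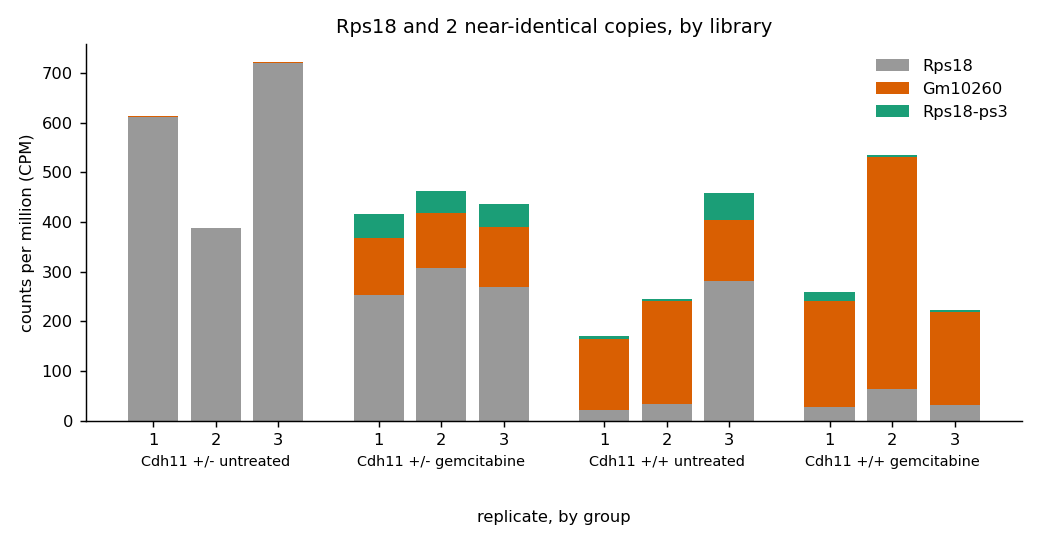
Stacked bars give CPM (y axis) assigned to Rps18, Gm10260 and Rps18-ps3 in each of the 12 libraries (x axis, by group and replicate). In the 3 untreated heterozygous libraries almost the whole bar is Rps18, while the 3 treated heterozygous and all 6 wild-type libraries carry a Gm10260 part. The Rps18 part is smaller in the wild-type libraries, untreated replicate 3 aside, than in any heterozygous one.

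The copies also set the untreated heterozygous libraries apart from the wild-type ones. Gm10260 stood at 143, 206 and 123 CPM in untreated and 215, 466 and 188 CPM in treated wild-type tumours, against 0.900, 0.929 and 1.51 CPM in untreated heterozygous tumours. Only these 3 of the 12 libraries were low. The same holds for BC023719, which stood between 3.08 and 7.87 CPM in the 6 wild-type libraries. Rps18 itself was at 612, 387 and 720 CPM in untreated and 252, 307 and 269 CPM in treated heterozygous tumours. In wild-type tumours it was at 21.2, 33.8 and 282 CPM untreated and 27.2, 64.5 and 31.7 CPM treated. Untreated wild-type replicate 3 lay within the treated heterozygous range, and the other wild-type libraries were below every heterozygous one. For Gm10260 the drug effect in heterozygous minus that in wild-type tumours was 5.82 ± 0.52 (log2 ± SE, adjusted p = 0.0048, edgeR).

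BC023719 lies in the major histocompatibility region of chromosome 17, where laboratory strains differ in sequence. H2-Ea-ps, a class II gene that some strains lack in working form, had 0, 0 and 0 counts untreated and 11, 120 and 53 treated. H2-Q1, a nonclassical class I gene, had 0, 1 and 2 against 16, 26 and 21. Neither passed the threshold (adjusted p = 0.593 and 0.483, edgeR). Across the span from Rps18 to 37483552, 11 of 180 tested genes were higher and 2 were lower at an unadjusted p under 0.05, which is 7.22% beside 7.90% of all other genes. At an unadjusted p under 0.01 there were 6 genes, 3.33% beside 1.58% elsewhere. The labels give no genotype at these loci, so which alleles a mouse carried and its treatment cannot be told apart.

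Among the named genes of smallest p, none of which passed the threshold, Lrat came first. Lrat encodes lecithin retinol acyltransferase, the enzyme with which stellate cells store vitamin A. It had 0, 8 and 6 counts in untreated and 88, 109 and 215 in treated libraries, and the groups did not overlap. The log2 fold change was 4.84 ± 0.74 (adjusted p = 0.245, edgeR). Without untreated replicate 1 it passed the threshold. Wild-type tumours held 8.64 ± 1.29 CPM untreated and 1.92 ± 0.503 CPM treated (SD, n = 3), compared with 0.0973 ± 0.0884 and 2.88 ± 1.30 in heterozygous tumours. The 23 stellate and retinoid genes tested, Lrat included, had a median log2 fold change of 0.31, with 15 higher and 8 lower, and a median of 0.15 without treated replicate 2.

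Dach1, a transcriptional regulator of development, was at 0.461, 0.410 and 0.318 CPM untreated and 1.47, 1.37 and 1.69 treated (log2 1.92 ± 0.33). Slfn2, a Schlafen protein of lymphoid and myeloid cells, was at 23.8, 18.5 and 19.2 against 61.4, 53.5 and 61.3 CPM (1.52 ± 0.30). In both the lowest treated library was above the highest untreated one. Olfm4, a secreted glycoprotein of neutrophils and crypt epithelium, was at 0.791, 0.518 and 0.0397 against 8.64, 7.45 and 4.59 CPM, and Naalad2, a peptidase, at 6.08, 8.57 and 8.80 against 17.3, 18.5 and 16.2 CPM. Adjusted p-values of these 4 genes were between 0.483 and 0.593 by edgeR. Platr17, a noncoding RNA, and Igkv14-126, an immunoglobulin segment, completed the higher genes by the same rule with H2-Q1 and Rps18-ps3.

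On the lower side the named genes of smallest p were Hectd2, Prag1, Gstp2, Herpud1, Acss2, Rp9, Slc7a11, Qtrt1, Mettl7a1 and Slc25a28, with adjusted p from 0.503 to 0.593 (edgeR). Hectd2, a ubiquitin ligase, was at 19.02, 14.1 and 15.1 CPM untreated and 5.57, 6.75 and 6.50 treated (log2 -1.36 ± 0.24). Prag1, a pseudokinase scaffold, was at 115, 99.5 and 133 against 59.4, 59.0 and 44.5 CPM (-1.09 ± 0.21). The groups of both were apart by more than the range within either. Slc7a11, the cystine importer that feeds glutathione synthesis, was at 147, 143 and 85.9 against 47.7, 32.5 and 15.7 CPM (-1.97 ± 0.47). Herpud1, which serves degradation at the endoplasmic reticulum, was at 101, 132 and 177 against 71.7, 71.7 and 64.8 CPM (-0.98 ± 0.22). Acss2, which makes acetyl-CoA from acetate, was at 28.9, 26.7 and 22.4 against 11.8, 15.9 and 9.31 CPM (-1.07 ± 0.25). No treated library of these 3 genes reached an untreated one. Gstp2 (-2.72 ± 0.61) has near-identical copies, and summed with Gstp1 and Gstp-ps it was -0.83 ± 0.23. Mettl7a1 summed with its copies was -0.92 ± 0.21.

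**Figure D2:**
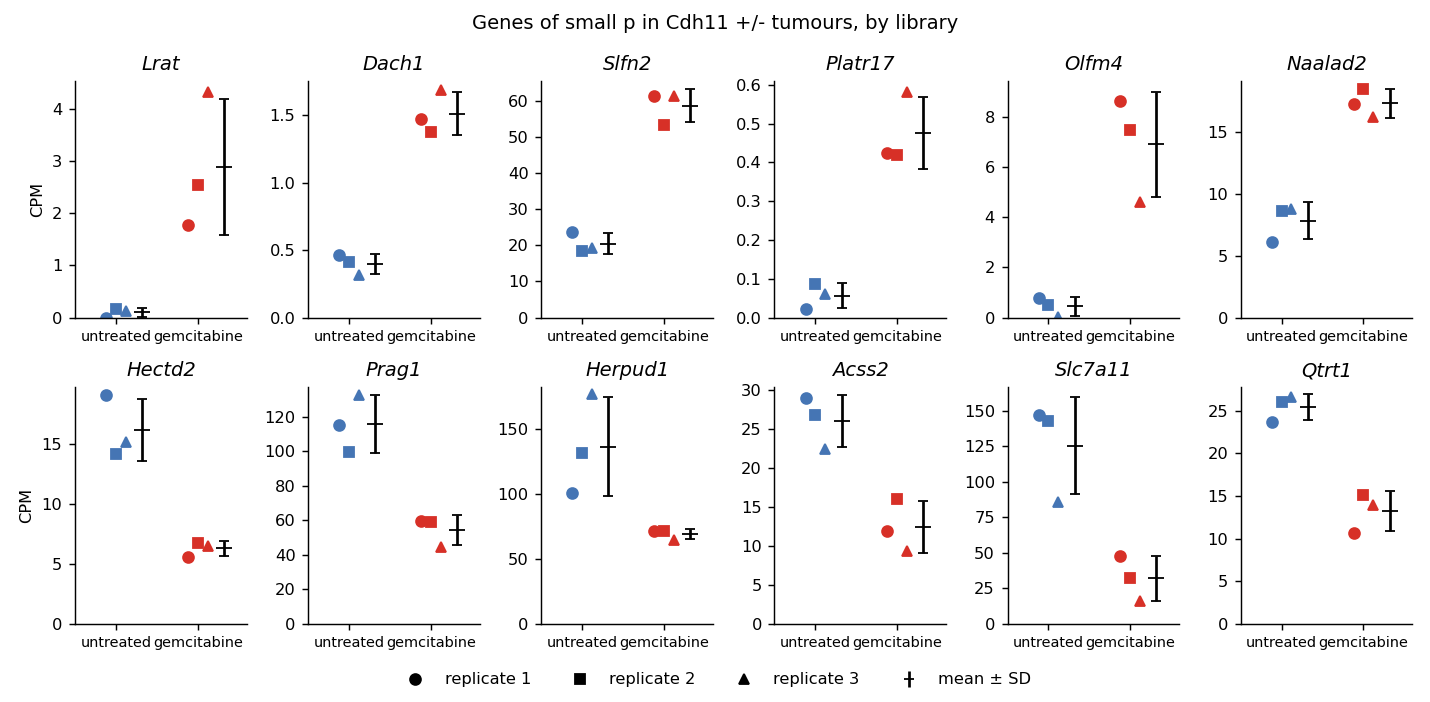
CPM (y axis, from 0) of 12 genes in untreated and treated heterozygous libraries (x axis), with replicates by symbol and a bar for mean ± SD (n = 3). In each panel the 2 groups are separate, and none of the 12 passed the threshold of edgeR's test over all genes.

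Immune cell markers were higher in treated than in untreated heterozygous tumours as list medians, but no member of these lists passed the threshold. Neutrophil genes had a median log2 fold change of 1.57, with 22 of 23 tested higher, beside -0.03 and 46.8% for all genes. In 9 of the 23 every treated library was above every untreated one (background 6.64%). Leaving out any 1 library kept the median between 1.25 and 1.74. Summed neutrophil markers overlapped, at 253, 480 and 197 CPM untreated and 576, 983 and 245 treated. With Xist and Y-linked levels as a covariate the medians of several of the lists below were smaller but of the same sign: 0.50 for macrophage, 0.61 for dendritic cell, 0.92 for T cell, 0.45 for class II, 0.47 for chemokine and 0.43 for complement genes. Trem1, an activating receptor of neutrophils and monocytes, was at 13.2, 8.46 and 5.54 CPM untreated and 27.6, 20.5 and 21.6 treated (1.36 ± 0.33, adjusted p = 0.593, edgeR). S100a8, a calcium-binding protein that fills the neutrophil cytosol, was at 5.16, 2.96 and 2.24 against 9.51, 16.7 and 6.80 CPM. Csf3r, the receptor for granulocyte colony-stimulating factor, was at 10.1, 9.09 and 11.4 against 17.5, 54.4 and 13.6 CPM. The treated libraries were above the untreated ones for each of these 3, and treated replicate 2 was the highest for S100a8 and Csf3r. Cxcr2, the chemokine receptor of neutrophils, overlapped at 2.44, 2.42 and 2.78 against 8.86, 21.9 and 1.48 CPM.

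Macrophage and monocyte genes were higher in 29 of 30, with a median of 0.79 (0.71 to 0.94 with 1 library left out). In 9 of the 30 the groups did not overlap (background 6.64%). Fcgr3, a low-affinity receptor for antibody, was at 70.8, 76.1 and 65.4 CPM untreated and 150, 111 and 137 treated (0.91 ± 0.24). Mrc1, the mannose receptor, was at 231, 177 and 139 against 531, 250 and 768 CPM, and Adgre1, the F4/80 antigen, at 16.4, 11.5 and 19.6 against 22.3, 53.3 and 52.9 CPM. In all 3 the treated libraries were above the untreated ones. Chil3, a chitinase-like protein of alternatively activated macrophages, ran from 32.3 to 624 CPM in untreated and from 375 to 4466 CPM in treated libraries and overlapped. Dendritic cell genes had a median of 0.97, with 17 of 19 higher. Sirpa, an inhibitory receptor of myeloid cells, was at 90.02, 66.2 and 61.6 against 121, 152 and 183 CPM.

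Lymphocyte genes differed within the treated group. B cell genes had a median of 2.20 (20 of 21 higher), T cell genes 1.47 (23 of 25, or 2.24 without untreated replicate 3), and immunoglobulin constant regions with plasma cell genes 3.24 (19 of 21). Treated replicates 2 and 3 carried these differences, while treated replicate 1 was not above the untreated libraries. Summed B cell markers were at 42.2, 37.0 and 42.7 CPM untreated and 36.5, 167 and 133 treated. Summed T cell markers were at 67.0, 22.5 and 63.6 against 34.1, 108 and 103 CPM. Igkc, the kappa light chain constant region, was at 34.5, 8.75 and 59.8 against 31.1, 541 and 1390 CPM (4.25 ± 1.32, adjusted p = 0.593, edgeR). For each of the 3, treated replicates 2 and 3 were above every untreated library and treated replicate 1 was not. Ms4a1, the CD20 antigen, and Pou2af1, a B cell coactivator, had the same order: Pou2af1 was at 0.900, 0.259 and 2.11 against 0.283, 15.8 and 16.4 CPM.

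Immunoglobulin variable segments repeated this. Of 348 segments 140 passed the filter on low counts, so the rest are not described by the next values. The filter covered all groups, so a segment could pass through the treated libraries where it was high. The share of higher segments among those tested therefore partly follows from the filter. Counts over all segments, given after it, do not depend on the filter. Of these 140, 139 were higher, and the median was 3.76, or 3.72 with 1 segment at its bound. All segments together held 1389, 400 and 3509 counts in untreated and 1512, 26448 and 60434 in treated libraries. Segments with 10 or more counts numbered 41, 6 and 96 untreated and 49, 163 and 177 treated, and the leading segment held 4.56% of the reads in treated replicate 2 and 11.2% in treated replicate 3. Reads of similar segments can be divided among them, so single segments are uncertain.

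Antigen presentation through class II was higher in all 13 genes tested, at a median of 1.13, but it was 0.55 without treated replicate 2, 0.74 without untreated replicate 2 and 1.99 without untreated replicate 3. H2-Aa, a class II alpha chain, was at 117, 27.6 and 218 CPM untreated and 77.2, 433 and 233 treated. Cd74, the invariant chain, was at 235, 63.2 and 508 against 206, 987 and 577 CPM. Both overlapped, with treated replicate 1 inside the untreated range. Ctss, the protease that trims the invariant chain, did not overlap at 260, 167 and 174 against 296, 359 and 518 CPM (0.96 ± 0.43). Class I and peptide loading genes had a median of 0.02 over 23 genes, or 0.61 without untreated replicate 3.

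Chemokines and their receptors had a median of 0.91, with 45 of 56 higher and 4 without overlap (background 6.64%), and 0.55 without treated replicate 2. Ccr1, a receptor of monocytes and neutrophils, was at 31.3, 21.3 and 21.3 CPM against 52.5, 56.1 and 76.0. Cxcl5, a neutrophil-attracting ligand, was at 7.38, 5.48 and 13.6 against 45.9, 110 and 5.90 CPM and overlapped. Csf2, the cytokine GM-CSF, was at 1.84, 0.432 and 0.874 against 2.58, 5.404 and 5.76 CPM and did not overlap. Complement and coagulation genes were higher in 32 of 39, at a median of 0.69, with 9 without overlap. That median was 0.29 without treated replicate 3 and 0.43 without untreated replicate 3. C3, the central component of complement, was at 270, 562 and 669 against 937, 1410 and 878 CPM. Mast cell and eosinophil genes had a median of 0.38, with 12 of 16 higher and 4 lower, and only Siglecf did not overlap. Siglecf, a receptor of eosinophils, was at 1.01, 0.950 and 1.17 against 2.20, 16.1 and 11.1 CPM. All treated libraries were above all untreated ones for C3 and for Siglecf.

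**Figure D3:**
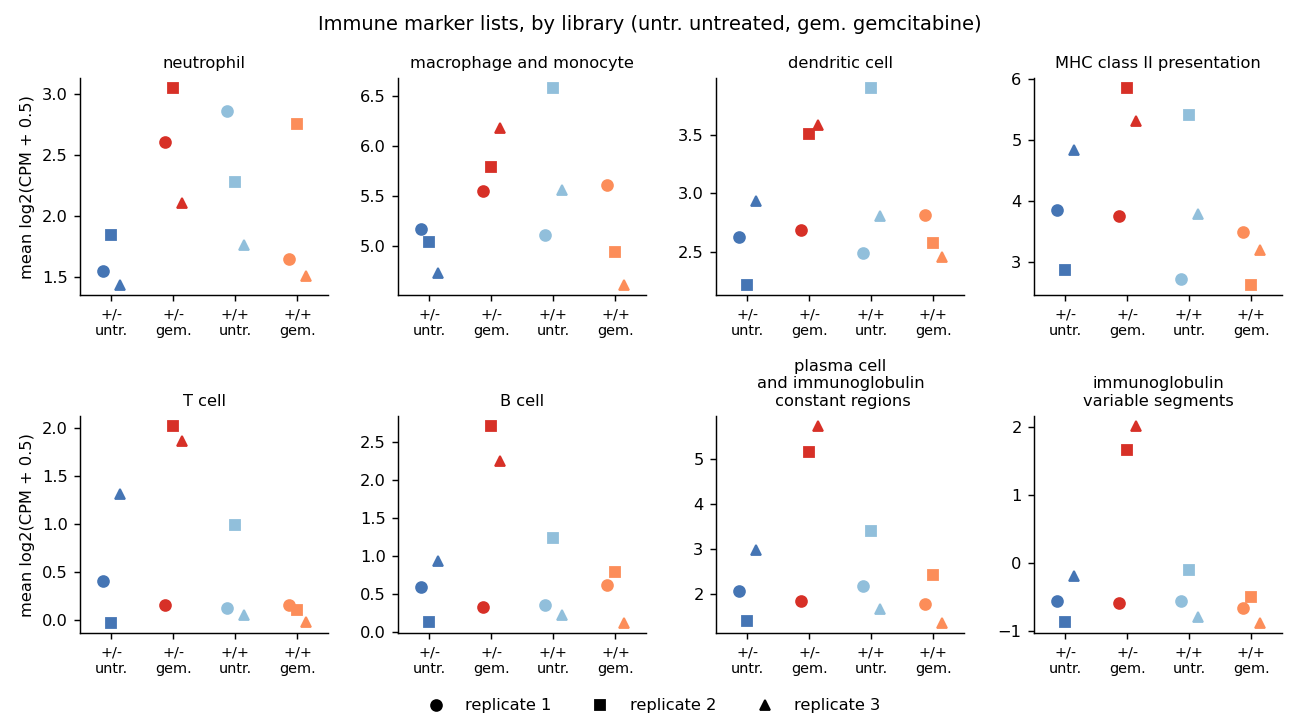
Mean log2(CPM + 0.5) over the tested members of 8 immune lists (y axis) in each library, by genotype and treatment (x axis), with replicates by symbol. Neutrophil and macrophage lists are higher in all 3 treated heterozygous libraries, while for the T cell, B cell and immunoglobulin lists treated replicate 1 lies with the untreated libraries.

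Stromal genes were higher in treated tumours as list medians for contractile and matrix glycoprotein genes, again with no gene past the threshold. Myofibroblast and smooth muscle genes had a median of 0.77, with 15 of 20 higher and 4 without overlap (background 6.64%). That median was 0.46 without untreated replicate 3 and 0.47 without treated replicate 3. Acta2, smooth muscle actin, was at 87.9, 69.6 and 50.6 CPM untreated and 224, 126 and 148 treated (1.26 ± 0.34, adjusted p = 0.593, edgeR). Tagln, an actin-bundling protein of smooth muscle, was at 64.0, 67.6 and 38.0 against 155, 92.9 and 113 CPM (1.09 ± 0.31). Mylk, myosin light chain kinase, was at 74.9, 63.7 and 63.3 against 118, 116 and 118 CPM (0.80 ± 0.27). The groups were apart in all 3. Matrix glycoproteins and proteoglycans had a median of 0.47 (36 of 42 higher), or 0.31 without treated replicate 2. Lum, the collagen-binding proteoglycan lumican, was at 41.002, 61.8 and 49.4 against 117, 79.8 and 65.3 CPM, and Emilin1, an elastic fibre protein, at 50.4, 65.7 and 44.2 against 82.9, 99.2 and 103 CPM.

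Collagens were closer to the median of all genes. The 41 chains tested had a median of 0.30, with 25 higher, 16 lower, 1 higher without overlap and none lower without overlap. The median was between 0.08, without untreated replicate 3, and 0.46, without untreated replicate 1, and it was 0.10 without treated replicate 1 and 0.11 without treated replicate 2. Col1a2, a chain of the main fibrillar collagen, was at 1365, 1973 and 1291 CPM untreated and 2291, 2076 and 990 treated, and the groups overlapped. Col4a4 and Col4a6, chains of basement membrane collagen, had log2 fold changes of -1.19 ± 0.44 (-0.73 without untreated replicate 1) and -1.52 ± 0.67. Matrix-remodelling enzymes had a median of 0.24 over 45 genes, ranging from 0.08 without untreated replicate 3 to 0.75 without untreated replicate 2. Mmp13, a collagenase, was at 4.17, 2.79 and 2.78 against 102, 23.01 and 2.87 CPM, so treated replicate 1 was the highest and treated replicate 3 lay within the untreated range. Endothelial genes were higher in 27 of 30, at a median of 0.46, with 3 higher without overlap (background 6.64%). Eng, a coreceptor for TGF-beta on vessels, was at 42.8, 46.3 and 35.3 against 76.7, 77.5 and 59.5 CPM, and Cdh5, the cadherin of endothelial junctions, at 44.1, 51.2 and 34.8 against 56.5, 76.8 and 57.3 CPM. Neither pair of groups overlapped.

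Genes of the duct-like carcinoma cells were lower as a list. Of 36 tested, 29 were lower, at a median of -0.50 (-0.67 to -0.34 with 1 library left out, -0.24 with the Xist and Y-linked covariate) beside -0.03 for all genes, and 3 were lower without overlap (background 6.08%). Without untreated replicate 1, which holds the highest Dmbt1, 21 of the 36 were lower. Dmbt1, a secreted mucosal scavenger protein, was at 21012, 3788 and 3801 CPM untreated and 2140, 2692 and 376 treated (-2.46 ± 0.91, adjusted p = 0.593, edgeR), and its log2 fold change was -1.13 without untreated replicate 1. Cdh1, E-cadherin, was at 694, 558 and 512 against 456, 379 and 427 CPM (-0.48 ± 0.25). No treated library reached an untreated one in either gene, and Krt8 was the other member without overlap. The separate list of tight junction genes and cadherins, which shares Cdh1, had a median of -0.06, with 16 of 39 higher and 23 lower. Tjp3, a tight junction scaffold of that list, was at 96.1, 60.7 and 74.1 against 40.7, 45.0004 and 19.4 CPM (-1.14 ± 0.40). Mucins and trefoil factors had a median of -0.90, with 12 of 15 lower and none without overlap, and from -1.61 without treated replicate 2 to -0.34 without untreated replicate 3. Muc5ac, a gastric gel-forming mucin, was at 26.7, 9.74 and 2637 against 6.52, 11.3 and 114 CPM, and Muc3, an intestinal membrane mucin, at 147, 42.3 and 2.70 against 9.63, 4.71 and 0.542 CPM. Single untreated libraries set these 2 differences, since untreated replicate 3 held most Muc5ac and replicate 1 most Muc3. Klf5, a factor of epithelial proliferation, was at 58.0, 68.1 and 37.4 against 36.7, 26.2 and 20.8 CPM. The pancreatic and gut lineage factors, its list, had a median of -0.72, or 0.12 without untreated replicate 1.

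Remnants of normal pancreas were scarce. Summed acinar markers were at 29.6, 19.02 and 44.2 CPM in untreated and 14.8, 30.3 and 14.9 in treated libraries, and 11 of the 29 tested were at 0 in 1 group. Islet genes had a median of 2.40, with 19 of 21 higher, or 1.33 without treated replicate 2. Ins1, an insulin gene, had no reads in the untreated libraries and was at 1.37, 8.41 and 0.0401 CPM in the treated ones. Summed islet markers were at 50.7, 54.2 and 60.1 against 78.9, 150 and 40.1 CPM, so the groups overlapped. Summed hepatocyte and plasma protein genes were at 2499, 730 and 899 against 2034, 715 and 1134 CPM. The part of these tissues in the other differences was not tested.

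Of the genes that handle gemcitabine, 1 was higher and 2 were lower without overlap (background 6.64% and 6.08%). The 30 tested had a median of 0.20, with 20 higher and 10 lower, or 0.04 without untreated replicate 1. Slc29a1, the equilibrative nucleoside transporter that takes up the drug, was at 22.7, 93.2 and 98.7 CPM untreated and 51.0, 48.1 and 64.8 treated. Dck, the kinase that activates it, was at 6.43, 10.3 and 14.9 against 7.51, 16.98 and 14.1 CPM, and Cda, the deaminase that inactivates it, at 3.27, 8.70 and 2.42 against 9.37, 10.1 and 7.08 CPM. All 3 overlapped. The ribonucleotide reductase subunit Rrm2 was at 10.4, 58.6 and 57.1 against 13.1, 27.5 and 11.4 CPM (-1.28 ± 0.82). Ctps, which makes CTP, was at 57.8, 54.9 and 61.6 against 104, 82.8 and 90.8 CPM (0.67 ± 0.24, adjusted p = 0.593, edgeR). Nt5c2, a nucleotidase, was at 154, 95.9 and 71.9 against 67.5, 70.6 and 58.3 CPM (-0.71 ± 0.27, or -0.36 without untreated replicate 1). Neither of the last 2 overlapped.

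Targets of p53, the damage-responsive factor whose gene is mutated in KPC tumours, had a median of -0.08 over 32 genes, 12 higher and 20 lower. Cdkn1a, the cyclin-dependent kinase inhibitor p21, was at 28.7, 80.2 and 20.4 CPM untreated and 26.5, 21.6 and 20.4 treated (-0.92 ± 0.46, or -0.10 without untreated replicate 2). Mdm2, the ubiquitin ligase of p53, was at 59.0, 61.9 and 44.5 against 46.1, 44.7 and 55.9 CPM. Bbc3, the cell death gene PUMA, was at 3.67, 8.29 and 6.06 against 3.23, 3.05 and 2.05 CPM and alone of these 3 did not overlap. DNA repair genes had a median of 0.31, with 26 of 32 higher and 3 higher without overlap (background 6.64%). That median ran from 0.09 without treated replicate 2 to 0.53 without untreated replicate 3. Topbp1, an activator of the ATR checkpoint, was at 54.4, 43.4 and 70.7 against 72.6, 93.8 and 97.9 CPM (0.65 ± 0.21, adjusted p = 0.593, edgeR). Apoptosis genes had a median of 0.18, with 23 of 31 higher and 6 without overlap (background 6.64%). The inflammatory caspases were among those 6: Casp1 was at 4.15, 3.11 and 2.96 against 6.30, 5.80 and 10.1 CPM, and Casp4 at 3.71, 4.69 and 3.18 against 9.08, 6.66 and 7.54 CPM.

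Cell cycle genes had a median of 0.38, with 32 of 40 higher, but this depended on single libraries. It was 1.26 without untreated replicate 3 and -0.10 without treated replicate 2. Mki67, the proliferation antigen, was at 91.7, 64.2 and 399 CPM untreated and 120, 405 and 180 treated, with untreated replicate 3 close to the highest treated library. Top2a, topoisomerase II alpha, was at 37.5, 16.99 and 135 against 57.1, 163 and 106 CPM. Replication-dependent histones, whose transcripts are made in S phase, had a median of 0.08 over 64 genes, and 1 was higher without overlap (background 6.64%). That median was 0.89 without untreated replicate 3, with 59 of 64 higher, and -0.42 without treated replicate 2, with 59 of 64 lower. It was also negative without untreated replicate 1 (-0.20) or untreated replicate 2 (-0.25).

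Interferon-stimulated genes had a median of -0.64, with 36 of 47 lower. In the list 2 genes were higher and 1 was lower without overlap (background 6.64% and 6.08%). Untreated replicate 3 held the highest level, and without it the median was 0.62. Cxcl9, a T cell chemokine induced by interferon gamma, was at 0.0439, 0 and 24.4 CPM untreated and 0.121, 1.40 and 0.742 treated. Tgtp1, an interferon-induced GTPase, was at 0.747, 0.324 and 52.97 against 0.807, 1.68 and 3.13 CPM. Ido1, a tryptophan-degrading enzyme, was at 0.351, 0.173 and 5.62 against 0.0807, 0 and 0.181 CPM. It belongs to a separate list, of regulatory T cell and checkpoint genes. In each of these 3, untreated replicate 3 alone was high.

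Genes of glycolysis and hypoxia had a median of -0.69, with 32 of 38 lower and 5 without overlap (background 6.08%). Untreated replicate 2 was the highest, and without it the median was 0.07. Vegfa, the vessel growth factor, was at 183, 1188 and 101 CPM untreated and 249, 110 and 131 treated. Slc2a1, the glucose transporter GLUT1, was at 79.2, 388 and 47.6 against 110, 66.5 and 68.7 CPM. Only untreated replicate 2 stood out in either gene. Car9, a hypoxia-induced carbonic anhydrase, was at 26.2, 50.3 and 28.0 against 19.8, 11.6 and 9.83 CPM and did not overlap (-1.34 ± 0.41, adjusted p = 0.593, edgeR). Immediate early genes had a median of -0.51, or -0.02 without untreated replicate 2. Fos, part of the AP-1 factor, was at 62.0, 201 and 28.2 against 38.6, 41.1 and 28.1 CPM, while Ier2, an early response gene, was at 30.9, 28.9 and 29.0 against 18.9, 19.96 and 17.3 CPM without overlap. Circadian clock genes were lower in 17 of 19, at a median of -0.50, or -0.29 without untreated replicate 2 and -0.82 without untreated replicate 3.

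Antioxidant and lipid synthesis genes were lower as list medians with any 1 library left out. Targets of NRF2, the factor that induces glutathione genes, had a median of -0.39 (-0.44 to -0.30 with 1 library left out), with 28 of 39 lower and 8 without overlap beside a background of 6.08%. Gclc, the catalytic subunit of the rate-limiting enzyme of glutathione synthesis, was at 278, 192 and 409 CPM untreated and 149, 144 and 66.2 treated (-1.29 ± 0.47). Keap1, the repressor of NRF2, was at 44.6, 71.4 and 63.7 against 43.2, 36.0 and 37.7 CPM (-0.62 ± 0.19). Both were lower in every treated library. Fatty acid and cholesterol synthesis genes had a median of -0.39 (-0.50 to -0.24, the latter without untreated replicate 3), with 29 of 34 lower and 8 without overlap. Sqle, squalene epoxidase, was at 58.6, 94.9 and 73.4 against 32.6, 55.9 and 37.6 CPM without overlap. Cyp7b1, an oxysterol hydroxylase, went the other way at 3.56, 4.19 and 2.12 against 10.7, 6.71 and 11.1 CPM (1.53 ± 0.40). None passed the threshold (adjusted p of 0.593 or above, edgeR).

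Unfolded protein and integrated stress genes had a median of -0.07 over 33 genes, from -0.34 without untreated replicate 1 to 0.06 without untreated replicate 2, and Herpud1 and Slc7a11, described above, belong to it. Asns, asparagine synthetase, was at 61.4, 21.6 and 37.1 CPM against 13.6, 15.3 and 20.3 without overlap (-1.29 ± 0.38, or -0.84 without untreated replicate 1).

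Short noncoding RNAs and ribosomal protein genes were lower in treated heterozygous tumours as list medians. Small nucleolar RNAs, which guide modification of ribosomal RNA, had a median of -0.56 (-0.65 to -0.30, the latter without untreated replicate 3), with 47 of 52 tested lower and 14 without overlap. Only 52 of 141 passed the filter on low counts. Snord22 was at 74.0, 73.6 and 79.4 CPM untreated and 56.4, 43.1 and 39.99 treated (-0.70 ± 0.18), and Snora73b at 292, 248 and 465 against 214, 172 and 227 CPM. Spliceosomal and other small RNAs had a median of -0.41, with 31 of 34 lower and 6 without overlap. Ribosomal protein genes had a median of -0.31, with 78 of 83 lower and 7 without overlap (background 6.08%), and -0.14 without untreated replicate 3 or -0.50 without untreated replicate 2. Rpl18 was at 487, 308 and 508 against 260, 306 and 269 CPM, and Rps27 at 357, 266 and 386 against 209, 232 and 209 CPM. In both genes untreated replicate 2 was the lowest untreated library and lay near the treated ones. Near-identical copies were searched for 22 genes only, with neither Rpl18 nor Rps27 among them. Whether reads of ribosomal protein genes were assigned to copies, as with Rps18 above, was not tested. The share of reads from 7SL and 7SK RNA was 8.43, 9.59 and 8.19% untreated and 7.26, 7.56 and 8.52% treated, and its part in these differences was not tested.

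Signalling lists had medians near that of all genes, with sign changes when single libraries were left out for some: TGF-beta and BMP 0.05, Wnt -0.07, hedgehog -0.14 and Notch 0.10. Within Wnt, the ligand Wnt10a was at 5.20, 3.67 and 3.12 CPM against 26.3, 28.2 and 18.2 (2.60 ± 0.71, adjusted p = 0.593, edgeR), while the receptors Fzd5 (-0.75 ± 0.21) and Lrp5 (-0.82 ± 0.25) were lower. Fzd5 was at 89.6, 84.9 and 78.1 against 57.3, 56.6 and 36.5 CPM. Ptch1, the hedgehog receptor, was at 103, 84.5 and 89.9 against 64.8, 70.9 and 52.7 CPM. The groups of these genes did not overlap.

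**Figure D4:**
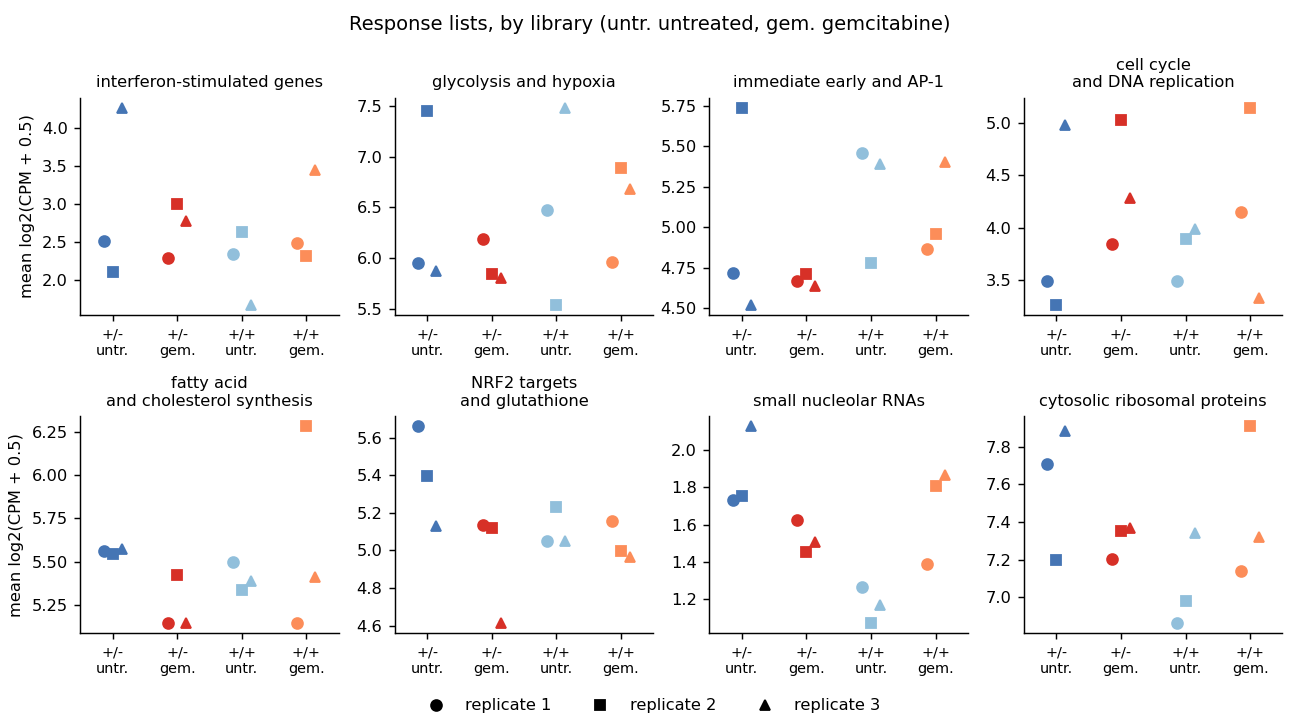
Mean log2(CPM + 0.5) over the tested members of 8 lists (y axis) in each library, by genotype and treatment (x axis), with replicates by symbol. Among heterozygous libraries, untreated replicate 3 is highest for interferon-stimulated genes and untreated replicate 2 for glycolysis and immediate early genes, while small nucleolar RNAs are lower in all 3 treated heterozygous libraries.

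The drug effect in heterozygous tumours was compared with that in wild-type tumours by the difference of the 2 contrasts. Again 2 genes passed, Gm10260 and BC023719, both with a larger effect in heterozygous tumours (0.00831% of 24065, edgeR adjusted p under 0.05), and 3046 (12.7%) had an unadjusted p under 0.05, or 1481 with the Xist and Y-linked covariate. In wild-type tumours alone no gene passed, and at an unadjusted p under 0.05 there were 2070 genes (8.6%), 975 higher (4.05%) and 1095 lower (4.55%). Lrat (7.01 ± 0.97, log2 ± SE), Cyp7b1 (3.89 ± 0.57), Naalad2 (2.21 ± 0.34), Trem1 (2.76 ± 0.47) and Fgf10 (3.55 ± 0.64) had the smallest p among named genes with a higher effect in heterozygous tumours, at adjusted p from 0.106 to 0.252 (edgeR). Qtrt1 (-2.30 ± 0.32), Snord22 (-1.67 ± 0.25), Ckmt1 (-3.87 ± 0.68), Eif3g (-1.37 ± 0.25) and Dnajc22 (-2.40 ± 0.46) had the smallest p in the other direction. Qtrt1, a subunit of the enzyme that puts queuine into transfer RNA, was at 23.7, 26.0 and 26.6 CPM untreated and 10.7, 15.1 and 13.9 treated in heterozygous tumours, and at 9.78 ± 1.24 and 25.1 ± 6.61 CPM in wild-type tumours (SD, n = 3). Its groups were apart in both genotypes and in opposite order, but the difference missed the threshold.

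List medians often had opposite signs in the 2 genotypes. In wild-type tumours the median was -0.47 for neutrophil, -0.78 for macrophage, -1.63 for class II and -0.93 for complement genes, against 1.57, 0.79, 1.13 and 0.69 in heterozygous tumours. It was 0.59 for duct epithelium, 0.96 for small nucleolar RNAs and 0.43 for ribosomal protein genes, against -0.50, -0.56 and -0.31. Wild-type medians were not recomputed with a library left out. Mean log2(CPM + 0.5) of wild-type class II genes was 2.72, 5.42 and 3.79 untreated and 3.49, 2.62 and 3.21 treated. For macrophage genes it was 5.11, 6.58 and 5.56 against 5.61, 4.94 and 4.61. Untreated wild-type replicate 2 was the highest in both, and the groups overlapped. Complement genes did not overlap, at 5.19, 5.71 and 5.10 against 4.95, 4.65 and 4.53. At an unadjusted p under 0.05 for the difference, 17 of 30 macrophage genes and 21 of 39 complement genes were higher (background 7.14%), and 28 of 52 small nucleolar RNAs were lower (background 5.52%). No member of these lists passed the adjusted threshold for the difference. Of the 6 wild-type libraries, 5 were Xist-high, from 1322 to 3569 CPM, against 1 of the 6 heterozygous ones, so sex-linked expression moves with genotype here. With the covariate named above, Gm10260 and BC023719 were again the 2 genes called.

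**Figure D5:**
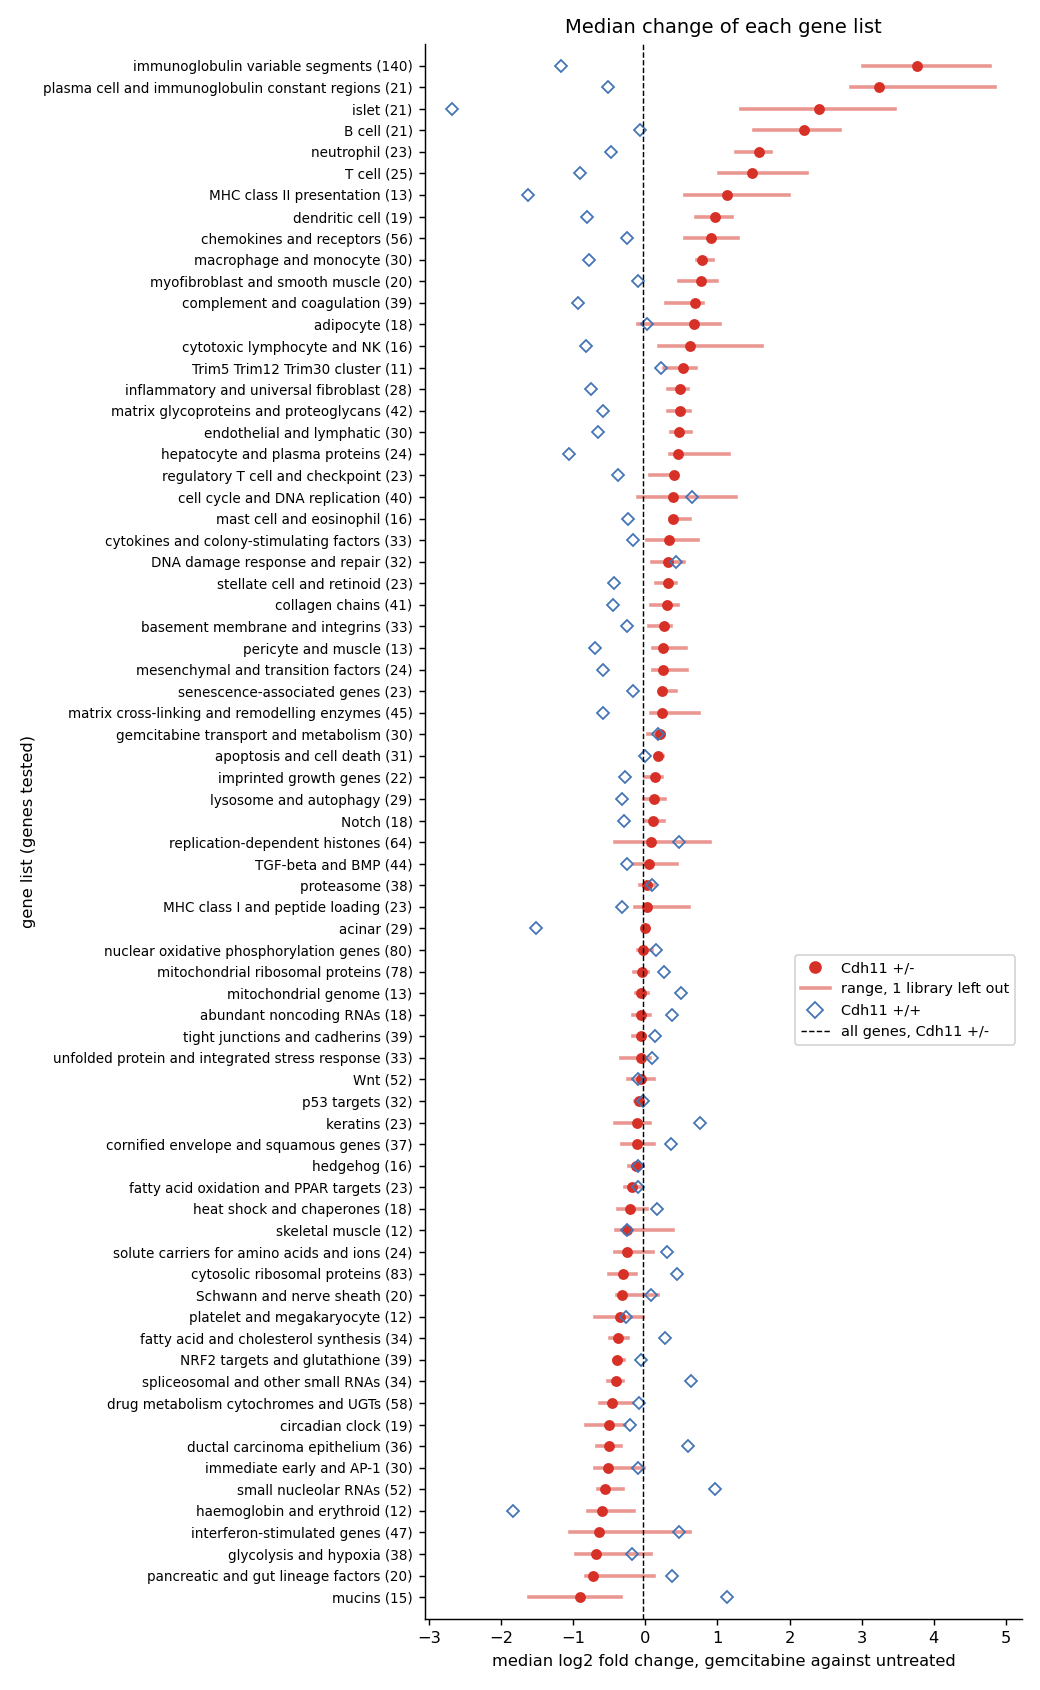
Median log2 fold change, gemcitabine against untreated (x axis), of gene lists with at least 10 tested genes (y axis), in heterozygous tumours (filled circles, with the range when 1 library is left out) and wild-type tumours (open diamonds). Neutrophil, macrophage, dendritic, T cell, B cell, myofibroblast and matrix glycoprotein lists lie right of the dashed median of all genes in heterozygous tumours and left of it in wild-type tumours, while interferon-stimulated genes lie the other way.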

How the data were processed

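Bulk RNA sequencing of 12 tumour libraries was used, 3 per group. The authors deposited RSEM expected counts per gene on GRCm38, per the submitters' processing notes, as whole numbers. The sources used here do not give the aligner, RSEM version, annotation release or strand setting. Libraries were stranded total RNA with ribosomal RNA depletion, per the labels' protocols. Symbols and positions came from GENCODE M21: 52489 of 52636 IDs matched, and the 147 others held 0.0452% of counts. Library totals ran from 39388328 to 56559413, and 12076 genes had no count. A share of counts carries counting error only.

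Genes passing filterByExpr (24065) were tested with edgeR 4.0.16 (R 4.3.3): TMM scaling, robust quasi-likelihood fit, all 12 libraries with 1 mean per group, Benjamini-Hochberg adjustment, threshold 0.05. Standard errors are the fold change divided by the root of F. CPM uses TMM-scaled totals. Alternatives were DESeq2 1.42.0, limma voom 3.58.1, other scalings and filters, covariates, and each library left out. Scripts were tested on simulated data. Copies were found with blastn 2.17.0. Lists were described by counts and medians without a test, and some genes stand in several lists. The 76 lists and the members were chosen with earlier results of these data known. Named genes were the 10 of smallest p per direction that are not predicted genes, up to 4 per list, and up to 5 per direction for the difference; a few textbook genes of each list were added after their values were seen. Some genes that the rule names are not reported here.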

Additional observations from a re-analysis of the deposited data

Results flagged for a closer look

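The effect of gemcitabine differed between genotypes for Gm10260 and for BC023719. The adjusted p of the difference, heterozygous minus wild-type, was 0.0048 for both by edgeR's quasi-likelihood test. Gm10260 was higher in 3 of 3 treated than in any untreated heterozygous library, and its effect exceeded that in wild-type tumours by 5.82 ± 0.52 (log2 ± SE). BC023719 had no counts in the 3 untreated heterozygous libraries and counts in the other 9. Both have near-identical copies, and neither call held for the counts summed over the copies. For BC023719 most of the summed counts were those of H2-T22, so that sum could not show a gain of its size. Limma voom gave 1 call for the difference, Gm10260.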

How the results depend on the processing

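The count of genes called in heterozygous tumours was 2 under relative log expression and upper quartile scaling, with no filter, a stricter filter, a sex-linked or acinar covariate, limma voom, or the 6 libraries alone, which called Rps18-ps3 in place of BC023719 (adjusted p = 0.201, edgeR). DESeq2 called 170, and leaving out 1 library gave from 2 to 9. With the Xist and Y-linked covariate 1023 genes had an unadjusted p under 0.05, compared with 1901. For the difference between genotypes, the count was 1 with limma voom, 652 with DESeq2, 3 with no filter, and from 2 to 7 with 1 library left out, with 7 without untreated heterozygous replicate 1, 4 without untreated heterozygous replicate 3 and 4 without treated wild-type replicate 1.

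Replicate numbers did not pair the samples: deviations of same-numbered libraries correlated at 0.04, -0.19 and 0.02, and with a replicate block 2 genes were called in heterozygous tumours and 2 for the difference. Of 1743 fold changes of named genes under alternatives, 1728 kept their sign. Many of these genes were named for a small p in the same libraries, so this share partly follows from the choice. Cdh11 was at 0.19 without untreated replicate 1 and 0.16 without treated replicate 3, with a lowest value of -0.31. Summed with copies, Gm10260 and Rps18-ps3 were at -0.39 and BC023719 at -0.38. With 1 library left out, Muc5ac ran from -6.64 to 1.27, Tgtp1 from -3.86 to 1.80 and Cxcl9 from -4.22 to 4.94, each highest without untreated replicate 3, and Cxcl9 was at 0.90 with limma voom. Vegfa ran from -2.07 to 0.20 and Slc2a1 from -1.51 to 0.37, both highest without untreated replicate 2. Mki67 ran from -0.29 without treated replicate 2 to 1.595 without untreated replicate 3, and Col1a2 from -0.0089 without treated replicate 1 to 0.50 without treated replicate 3. Xist was at 0.60 with its own level as covariate. Of 1216 list medians under alternatives, 62 moved by more than 1 SD of the libraries, 43 of them when a library was left out. The cause was not tested. Leaving out 1 library leaves 2 in a group, and spread between libraries, not depth, limits genes above a few CPM.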

Other observations

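Genes of chromosome 12 were lower in treated heterozygous tumours more often than those of other chromosomes. Of 1041 tested genes there, 734 (70.5%) were lower beside 53.2% of all genes, and 164 (15.8%) were lower without overlap beside 6.08% of all genes. An unadjusted p under 0.05 (edgeR) was reached in either direction by 16.5% of the 1041 beside 7.9% of all genes. Of the 1041, 106 were lower and 66 were higher at that p, beside 3.48% lower and 4.42% higher over all genes. Over the 718 genes at 1 CPM or more on average, the median log2 fold change was -0.28, and from -0.36 to -0.16 with 1 library left out. The median deviation from each gene's mean over the 6 libraries was 0.32, 0.08 and -0.07 on the log2 scale in untreated and -0.19, -0.16 and -0.02 in treated libraries. Untreated replicate 1 was thus the highest, and the groups overlapped. Chromosome 19 came next, with 451 of 659 lower (68.4%) and a median of -0.19. Median fold changes of the other chromosomes lay between -0.15 and 0.08.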
